A study of Mus musculus with 33 samples.

Results

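The Zfp42 promoter gRNAs described here are the CRISPR guide RNAs whose listed interval has its midpoint in chr8:43305009-43309009 (mm10), within 2 kb on either side of the annotated 5′ end of Zfp42 at 43307009. The gene lies on the minus strand, so higher coordinates are upstream. The rule used position alone and found 453 gRNAs among the 3918 of the Zfp42 library and the 15672 of all 4 libraries, with 214 upstream of the 5′ end and 239 inside the gene. Of these 453, 444 overlap another member by at least 1 base, so neighbours share sequence and are not independent tests of a position.

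The study introduced libraries of gRNAs into mouse embryonic stem cells, the cultured pluripotent cells of the early embryo, and counted which gRNAs were present after sorting the cells by a GFP reporter. In the Zfp42 line GFP had been put in the place of sequence at the Zfp42 start site, and all cells carried a dummy guide RNA at the ROSA26 locus, called the placeholder below. Cells were grown in serum with LIF, GSK-3 inhibitor XV and UO126. The populations were unsorted cells (bulk), cells of medium GFP (GFP-medium) and cells without GFP (GFP-negative), each as 4 replicates of the same line. The sources used here do not give the extent of the sequence that GFP replaced, whether the line was a single clone, whether 1 or both alleles carried GFP, or the number of sorted cells. Whether the replicates were separate cultures is not stated either, so p-values measure the spread between these samples.

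Zfp42, also known as Rex1, encodes a zinc-finger protein used as a marker of the naive pluripotent state. A promoter holds the start site and the nearby sequence where transcription factors and RNA polymerase assemble, and the octamer is a motif bound by Oct proteins, including the pluripotency factor Oct4. Cas9 cuts a site that matches the gRNA and is followed by an NGG sequence called the PAM, a few bases from that PAM, and repair often leaves a small insertion or deletion. A cut that lowers expression of the reporter should move a cell, and with it the gRNA, into a sorted population of less GFP.

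The promoter itself is shown first, because the members nearest to the start can be placed on it base by base. These are the 250 bases upstream of the start on the gene's strand, from RefSeq (GRCm38.p6), at chr8:43307010-43307259 of that build, with the octamer in capitals.
Zfp42 upstream: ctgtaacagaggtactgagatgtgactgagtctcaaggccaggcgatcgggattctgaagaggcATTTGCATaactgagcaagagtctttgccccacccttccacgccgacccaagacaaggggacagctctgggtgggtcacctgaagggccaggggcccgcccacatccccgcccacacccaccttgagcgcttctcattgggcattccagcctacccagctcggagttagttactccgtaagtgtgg

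Its GC content was 58.4%. The octamer ATTTGCAT lay 179 to 186 bp upstream on the strand of the gene. Searched on both strands, this motif was found in 1.74% of 32851 RefSeq promoters. For all motifs, the stretch searched in these promoters also held bases inside the gene. It was therefore longer than the upstream stretch shown above. The GC box GGGCGG occurred at 74 to 79 bp and 86 to 91 bp upstream and the CCAAT box at 47 to 51 bp, each on the opposite strand and without overlap with another motif. These shorter motifs were common, since 35.7% of the promoters held the former and 37.4% the latter.

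The library names each gRNA by an interval. Within the stretch that could be read, from just inside the gene to the far end of the sequence above, all 56 listed intervals ended on a PAM when moved by 1 base to higher coordinates, against 23 of 56 as listed. The same shift held for 35 of 35 intervals at the Tdgf1 promoter, another library of the series. Intervals are printed below as deposited, and sites were read 1 base higher. The sites that follow are those nearest to the start, those over the GC boxes and those nearest to the octamer, each 5′ to 3′ on its own strand with the PAM in capitals.
chr8:43306979-43307000, minus strand: gagttcgtccatctaaaaaGGG
chr8:43306998-43307020, plus strand: ctctgttccggccacacttaCGG
chr8:43307005-43307026, minus strand: gttactccgtaagtgtggcCGG
chr8:43307009-43307030, minus strand: gttagttactccgtaagtgTGG
chr8:43307019-43307040, plus strand: ggagtaactaactccgagcTGG
chr8:43307032-43307054, minus strand: gcattccagcctacccagctCGG
chr8:43307067-43307088, plus strand: gctcaaggtgggtgtgggcGGG
chr8:43307078-43307100, plus strand: gtgtgggcggggatgtgggcGGG
chr8:43307094-43307116, plus strand: gggcgggcccctggcccttcAGG
chr8:43307196-43307217, minus strand: ggcgatcgggattctgaagAGG
chr8:43307208-43307229, minus strand: gtctcaaggccaggcgatcGGG
chr8:43307209-43307231, minus strand: gagtctcaaggccaggcgatCGG

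Of the 453 promoter gRNAs, 196 had a count in at least 1 of the 12 libraries, and 257 (56.7%) had none. In the whole Zfp42 library 2200 of 3918 (56.2%) had none. The first base of the site parted the counted from the uncounted wherever it could be read. Of 53 sites on a single possible strand, all 33 that start with G were counted and none of the 20 that start with another base was (1 with A, 8 with C and 11 with T). The site of chr8:43306998-43307020, which starts with C and spans the start of transcription, is an example of the latter. Another 3 intervals match a site on either strand and had no count.

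The length of the interval went with this. Of the 22-base intervals 88 of 90 were counted, and of the 23-base intervals 108 of 363 were. Among the readable sites all 16 of 22 bases start with G, as do 17 of 23 bases, while 20 of 23 bases do not. At the Tdgf1 promoter the pattern was absent: all 12 sites that start with another base and all 18 that start with G were counted there, as were 71 of 71 gRNAs of 22 bases and 379 of 385 of 23 bases. The Zfp42 promoter was therefore probed by 96 upstream and 100 gene-side gRNAs, and no level can be given for positions without a counted gRNA.

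The counts come from PCR libraries without mention of molecular identifiers, so reads are not independent molecules and intervals of counting error would understate the error. Total counts ran from 39096 to 82959 per bulk library, from 121455 to 268197 per GFP-medium library and from 252023 to 487732 per GFP-negative library. A gRNA level is given in CPM, its counts scaled to a library total of 1000000 with the placeholder left out, and 1 count is worth 12.1 to 25.6 CPM in bulk and 2.05 to 8.23 CPM in the sorted libraries. In bulk the placeholder took 1.22% and 1.09% of all counts in replicates 1 and 2 but 22.5% and 23.5% in replicates 3 and 4, and for several results values within each of these pairs of replicates are given. All levels are shares, and in GFP-negative libraries the 10 GFP-targeting positive controls alone took 16.1% to 28.2% of the counts, against 0.33% to 0.805% in bulk.

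The promoter gRNAs made up a larger share of the counts in GFP-medium than in bulk. They took 12.8%, 13.2%, 13.4% and 13.2% of the counts in bulk replicates 1 to 4, and 22.7%, 22.2%, 22.4% and 20.3% in the same replicates of GFP-medium. Every GFP-medium library lay above every bulk library, with a log2 difference of the means of 0.73 (exact permutation test, 2-sided, p = 0.0286, adjusted p = 0.0429 over 3 comparisons, n = 4 each). The difference was 0.79 within replicates 1 and 2 and 0.68 within replicates 3 and 4. This test ignores the replicate numbers, and an exact permutation test that exchanges populations only within a number cannot go below p = 0.125 with 4 pairs. The gain was not particular to the promoter. The region 2 to 5 kb upstream took 7.31% to 8.98% of bulk and 12.6% to 19.8% of GFP-medium counts, a log2 ratio of the means of 0.97. For the middle of the gene body and the last 2 kb of the gene this ratio was 0.03 and 0.01.

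In GFP-negative cells the promoter share was 17.0%, 11.7%, 16.6% and 16.5%. Replicate 2 lay below all bulk libraries and the other 3 lay above them. The log2 difference from bulk was 0.22 (exact permutation p = 0.143), or 0.35 without replicate 2, and that from GFP-medium was -0.52 (exact permutation p = 0.0286, adjusted p = 0.0429), with every GFP-negative library below every GFP-medium library. These shares move with the GFP-targeting counts in the denominator. With those counts left out, the promoter took 20.2% ± 2.94 (SD, n = 4) of GFP-negative counts, against 22.0% ± 1.14 in GFP-medium and 13.3% ± 0.253 in bulk. GFP-negative then lay above bulk by 0.59 on the log2 scale (exact permutation p = 0.0286, adjusted p = 0.0429), and its difference from GFP-medium shrank to -0.14 (exact permutation p = 0.257). When each library's most counted promoter gRNA was left out instead, GFP-negative and bulk differed by 0.03 (exact permutation p = 1). That step removes a different gRNA from each library, with 10.0% to 25.04% of the promoter counts in GFP-negative and 1.94% to 2.52% in bulk. By construction it therefore lowers the sorted share more, here and in the ratios of the promoter to other regions.

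Ratios between regions of the same library do not depend on the total. The promoter was set against the region 2 to 5 kb upstream (275 gRNAs), the middle of the gene body (433 gRNAs) and the last 2 kb of the gene (217 gRNAs), and its upstream side against its gene side, which gave 12 tests. The counts of the promoter over those of the upstream region were 1.43, 1.75, 1.84 and 1.80 in bulk, 1.15, 1.54, 1.58 and 1.61 in GFP-medium and 4.68, 4.45, 6.72 and 3.64 in GFP-negative. All GFP-negative libraries stood above all others in this ratio. The log2 difference was 1.49 from bulk and 1.70 from GFP-medium (exact permutation p = 0.0286 and adjusted p = 0.0490 for both), while GFP-medium and bulk overlapped (-0.22, exact permutation p = 0.143). Within each of the 4 replicate numbers, though, the GFP-medium ratio lay below that of bulk. The ratio tests also ignore the replicate numbers, and the floor of p = 0.125 for an exact permutation within a number holds for them too.

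Against the 3′ end of the gene the promoter went the other way in GFP-negative cells. The ratio differed from bulk by -1.44 in GFP-negative and by 0.72 in GFP-medium on the log2 scale, and that between GFP-negative and GFP-medium was -2.16 (exact permutation p = 0.0286 and adjusted p = 0.0490 for each). The 3′ end took 15.3% to 23.4% of GFP-negative counts, against 5.69% to 6.80% in bulk. Against the middle of the gene body the promoter differed little in GFP-negative (0.10, exact permutation p = 0.371), and in GFP-medium it was higher than in bulk (0.76, exact permutation p = 0.0286, adjusted p = 0.0490). That last value fell to 0.57 (exact permutation p = 0.143) without each library's most counted promoter gRNA.

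Within the promoter, the upstream side lost ground to the gene side in GFP-negative cells. The ratio of upstream to gene-side counts was 0.935, 0.812, 0.817 and 0.828 in bulk, 0.568, 0.885, 0.995 and 0.842 in GFP-medium and 0.556, 0.246, 0.64 and 0.577 in GFP-negative. Every GFP-negative library lay below every bulk library (log2 difference -0.84, exact permutation p = 0.0286, adjusted p = 0.0490), by -1.24 within replicates 1 and 2 and by -0.44 within replicates 3 and 4. Without GFP-negative replicate 2 it was -0.52. GFP-medium overlapped bulk (-0.07, exact permutation p = 0.857).

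The 8 bins of 500 bp gave 24 tests, of which 8 reached the smallest p that 4 against 4 libraries allow (0.0286) and none passed adjustment (smallest adjusted p = 0.0857, exact permutation). They are therefore given as values. The bin within 500 bp inside the gene held 2.04%, 2.26%, 2.45% and 2.41% of bulk counts, 6.84%, 4.73%, 5.29% and 5.87% of GFP-medium counts and 3.92%, 2.85%, 2.55% and 3.60% of GFP-negative counts. Neither sorted population overlapped bulk in this bin, at log2 differences of 1.30 and 0.48, and GFP-medium lay above GFP-negative throughout. Without each library's most counted promoter gRNA, GFP-medium differed from bulk by 0.89 (exact permutation p = 0.143) and GFP-negative from GFP-medium by -0.34 (exact permutation p = 0.457; with that gRNA -0.82), while GFP-negative against bulk was 0.55. The bin within 500 bp upstream held 1.52% to 1.77% of bulk, 1.83% to 4.25% of GFP-medium and 0.865% to 4.21% of GFP-negative counts, so that here only GFP-medium stood clear of bulk (0.89).

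Farther upstream the GFP-negative share lay below bulk in 2 of 3 bins. From 500 to 1000 bp the GFP-negative share, 0.333% to 1.36%, lay below that of bulk, 1.51% to 1.63% (log2 difference -1.08; -0.40 within replicates 1 and 2 and -1.76 within replicates 3 and 4). From 1000 to 1500 bp the populations overlapped, with 1.55% to 1.83% of bulk and 0.234% to 3.16% of GFP-negative counts. From 1500 to 2000 bp it was 0.872% to 1.21% in bulk and 0.0398%, 0.105%, 0.527% and 0.406% in GFP-negative (-2.66, or -4.16 within replicates 1 and 2 and -1.15 within replicates 3 and 4), while GFP-medium, at 0.481% to 1.55%, overlapped bulk. Inside the gene from 500 to 1000 bp GFP-negative, at 0.325% to 0.540%, overlapped bulk, at 0.477% to 0.527% (-0.24). It lay above bulk from 1000 to 1500 bp by 0.55, with 3.77% to 5.16% against 2.86% to 3.49%, and from 1500 to 2000 bp by 0.66, with 1.40% to 2.86% against 1.08% to 1.29%. Without each library's most counted promoter gRNA these values were 0.27 and -0.00368.

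The next results rest on single gRNAs, whose levels differed widely between sorted replicates. Over the 196 counted members, the rank correlation between replicate libraries ran from 0.638 to 0.706 for bulk, from 0.339 to 0.465 for GFP-medium and from 0.316 to 0.408 for GFP-negative, as a description over gRNAs that share libraries. The most counted member took 1.94% to 2.52% of all promoter counts per bulk library. In GFP-medium it took 5.95% to 22.4%, and in GFP-negative 10.0% to 25.04%. The effective number of gRNAs, which is the inverse of the summed squared shares, was 105 to 118, 13.1 to 41.1 and 11.1 to 28.9 in the same order. Sorted populations thus carried the promoter signal on few gRNAs per library. Effective numbers were not computed for other regions. In the whole library, the gRNAs with a count numbered 1598 to 1689 per bulk, 475 to 957 per GFP-medium and 335 to 540 per GFP-negative library. Among promoter gRNAs they numbered 186 to 193, 83 to 132 and 61 to 107, so this drop was not particular to the promoter.

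Presence showed the same region from another side. Of 174 promoter gRNAs counted in all 4 bulk libraries, 53 (30.5%) were counted in all 4 GFP-medium libraries and 29 (16.7%) in all 4 GFP-negative libraries. In the whole library these shares were 13.4% and 6.49% of 1463, and in the region 2 to 5 kb upstream 24 and 0 of 116. In the middle of the gene body they were 34 and 15 of 156. At the other end, 15 promoter gRNAs of the 174 (8.62%) had no GFP-medium count and 30 (17.2%) had no GFP-negative count, where 17.8% and 37.9% had none in the whole library. In the region 2 to 5 kb upstream 8 (6.90%) and 43 (37.1%) of the 116 had none. In the middle of the gene body 20 (12.8%) and 39 (25%) of the 156 had none. Few gRNAs without a GFP-medium count were thus not particular to the promoter.

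The 24 members present in all 12 libraries lay at both sides, 15 inside the gene and 9 upstream, and 12 of them within 500 bp of the 5′ end, where 66 of the 196 counted members lie. In the readable stretch they include chr8:43306979-43307000, chr8:43307032-43307054 and chr8:43307209-43307231, whose sites are shown above.

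The count test was run on the whole Zfp42 table with edgeR's quasi-likelihood test and Benjamini-Hochberg adjustment over 1342 gRNAs with enough counts. Of the promoter gRNAs 169 were tested (80 upstream and 89 inside the gene), 27 were counted but too low for the test, and 257 had no count. Because a member could enter the test through bulk alone, the counts below describe the tested members only. Both contrasts with bulk use the same bulk libraries.

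In GFP-negative against bulk, 0 of the 169 were called higher, where 0.596% of all tested gRNAs were, and 0 reached an unadjusted p under 0.05 in that direction. Called lower were 40 of 169, or 23.7%, where 44.6% of all tested gRNAs were. The median log2 change was -0.33 over the promoter gRNAs and -4.06 over all tested. With the replicate number as a block 60 were called lower, where 55.4% of all tested were, and 0 higher, where 0.447% were. With DESeq2 16 were higher and 35 lower, where its shares over all gRNAs were 4.32% and 39%. Some gRNAs, such as chr8:43305284-43305306, got no adjusted p from DESeq2. They stay in its totals as not called, here and below. With limma-voom 0 were higher and 20 lower, where they were 0.596% and 20%. Without GFP-negative replicate 2, 61 were called lower by edgeR. The medians depend on how libraries are scaled: that over the promoter gRNAs and that over all were 0.92 and -2.85 by DESeq2, -4.24 and -6.02 by limma-voom, and -5.33 and -7.24 by edgeR with the block. The promoter median thus changed sign with the tool, and lay above that of all gRNAs in each.

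In GFP-medium against bulk, 0 were called higher (0% of all tested, and 0 at an unadjusted p under 0.05), and 13 of 169 lower (7.69%, where 19.7% of all tested were). The median log2 change was 0.90 over the promoter gRNAs and -1.25 over all. The replicate block gave 22 lower, where 29.1% of all tested were, and 0 higher. DESeq2 gave 16 higher and 13 lower, where its shares over all were 2.46% and 21.3%, and limma-voom 0 and 5, where they were 0% and 8.87%. The promoter median also turned with the tool, to 2.13 by DESeq2 (all tested, 0.03), -2.11 by limma-voom (all, -4.05) and -3.03 with the block (all, -4.81). The number called lower by edgeR was 21 without bulk replicate 4, 21 to 33 without each GFP-medium replicate and 23 or 24 without each GFP-negative replicate. Of the 16 that DESeq2 called higher in GFP-medium 10 lay within 500 bp of the 5′ end, and of the 16 in GFP-negative also 10. Of the 169 tested members, including those without a DESeq2 adjusted p, 53 lie there.

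Between GFP-negative and GFP-medium, edgeR called 7 of 169 higher, where 3.65% of all tested were, and 25 lower, where 21.9% were. All of these calls were lost with the replicate number as a block (0 and 0, with 2 and 18 at an unadjusted p under 0.05), in a fit of only these populations (0 and 0), and without replicate 1 of GFP-negative (0 and 0). Those higher were 1, 2 and 3 without GFP-medium replicates 2, 3 and 4. With DESeq2 3 were higher and 23 lower, where 3.35% and 18.8% of all tested were. With limma-voom 0 were higher and 20 lower, where 1.12% and 29.6% were. None of the 7 had its populations separated, and 5 of them had no GFP-medium count at all. Among the 25 called lower, 18 had no GFP-negative count.

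A rule that needs no model asks whether all 4 libraries of a population lie above all 4 of another. In GFP-medium 5 of the 196 counted promoter gRNAs stood above bulk (0.582% of all counted gRNAs of the library did, 10 in number), and 45 stood below (40.1% did). In GFP-negative 1 stood above bulk (0.931% did) and 65 stood below (51.5% did). Against GFP-medium, GFP-negative stood above for 0 promoter gRNAs (0.873% did) and below for 2 (1.22% did). These are descriptions, and none of the members that stood above bulk passed the edgeR test.

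The 1 gRNA above bulk in both sorted populations was chr8:43306951-43306972, with its midpoint 47.5 bp inside the gene. It stood at 785, 687, 368 and 409 CPM in bulk, 3856, 7461, 2997 and 4478 CPM in GFP-medium and 841, 2768, 1106 and 4968 CPM in GFP-negative. Its GFP-medium mean was 8.35 times and its GFP-negative mean 4.30 times the bulk mean. By edgeR the adjusted p was 0.214 and 0.294, and by DESeq2 2.32e-04 and 4.90e-04.

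The other 4 that stood above bulk in GFP-medium lay on both sides of the start. The gRNA chr8:43306846-43306867, 152.5 bp inside the gene, went from 677, 832, 1036 and 818 CPM in bulk to 1831, 2625, 6644 and 7379.8 CPM in GFP-medium and 549, 1607, 2275 and 4940.0 CPM in GFP-negative. The gRNA chr8:43306738-43306760, 260 bp inside, stood at 955, 1289.8, 1934 and 2097 CPM in bulk, 2699.9, 11335, 7954 and 5972 CPM in GFP-medium and 1323, 3869, 2429 and 3789 CPM in GFP-negative. In both, GFP-negative overlapped bulk through its lowest library. Their GFP-medium means were 5.49 and 4.46 times the bulk mean (edgeR adjusted p = 0.351 and 0.361, DESeq2 adjusted p = 2.96e-04 and 2.85e-04).

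Upstream, chr8:43307208-43307229 lies beyond the octamer at 209.5 bp. It stood at 493, 277, 576 and 230.2 CPM in bulk, 1284, 3244, 2659 and 889 CPM in GFP-medium, and 0, 969.8, 8631 and 2734 CPM in GFP-negative. Its GFP-medium mean was 5.12 times bulk (edgeR adjusted p = 0.420, DESeq2 adjusted p = 0.0110). The gRNA chr8:43307762-43307784, 764 bp upstream, was among the more abundant members, with 1416, 2399, 2648 and 2123 CPM in bulk and 4300.1, 5026, 13346 and 2956 CPM in GFP-medium. In GFP-negative it was at 1432, 1042, 2674 and 2039.5 CPM, overlapping bulk and below every GFP-medium library. Its GFP-medium mean was 2.98 times bulk (edgeR adjusted p = 0.536, DESeq2 adjusted p = 0.00150).

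The highest mean of any promoter gRNA in GFP-medium was that of chr8:43306714-43306735, 284.5 bp inside the gene, which is also among the 8 highest in GFP-negative. It stood at 2771, 2290.3, 1888 and 1918 CPM in bulk, 50959, 1950.1, 2215 and 283 CPM in GFP-medium and 14659, 8995, 758 and 1361 CPM in GFP-negative. The high GFP-medium mean of 13852 CPM came from replicate 1 alone. Its overlapping neighbour chr8:43306727-43306749, 271 bp inside, was high in other libraries, at 89.7, 142, 9065 and 8949 CPM in GFP-medium and 3.52, 7488, 2809 and 2397 CPM in GFP-negative, from 793 to 1842 CPM in bulk. These 2 and the gRNA at 260 bp described above, which lie within 25 bp of each other, had counts in all 12 libraries.

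At the start itself the 4 nearest members on the gene side were 1 counted gRNA and 3 without counts. The counted one, chr8:43306979-43307000 at 19.5 bp inside, stood at 246, 12.1, 806 and 895 CPM in bulk, 401, 559, 4619 and 5669.5 CPM in GFP-medium and 714, 55.4, 1588 and 4317 CPM in GFP-negative. Each sorted library stood above the bulk library of its own number, though the populations overlapped. For GFP-medium and GFP-negative against bulk, the edgeR adjusted p was 0.431 and 0.503, and the DESeq2 adjusted p was 0.0147 and 0.0294.

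The 4 nearest on the upstream side were all counted. The gRNA chr8:43307009-43307030, at 10.5 bp, stood at 262, 675, 599 and 614 CPM in bulk, 0, 18583, 2281 and 1488 CPM in GFP-medium and 0, 2444, 3733 and 282 CPM in GFP-negative. Its neighbour chr8:43307005-43307026, at 6.5 bp, stood at 139 to 1025 CPM in bulk, 4.72, 4418, 4018 and 1003 CPM in GFP-medium and 2238, 736, 0 and 0 CPM in GFP-negative. The pair at 20.5 and 21 bp, which differ by 1 base in length, had GFP-medium means of 1225 and 1446 CPM and GFP-negative means of 2949 and 316 CPM, from 558 and 429 CPM in bulk. None of these was called by edgeR, and each had a sorted library at 0. DESeq2 called chr8:43307009-43307030 higher in GFP-medium than in bulk (DESeq2 adjusted p = 0.00563) but not in GFP-negative (0.0652). It called chr8:43307019-43307040, at 20.5 bp, higher in GFP-negative (DESeq2 adjusted p = 0.0464) but not in GFP-medium (0.331). The others were not called against bulk by DESeq2.

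The next values set 3 stretches of the readable promoter side by side. They were drawn after their values had been seen and carry no test. From 35 bp inside to 35 bp upstream of the start, 8 of 16 gRNAs were counted, and together they took 0.566% ± 0.0959 of bulk counts, 1.71% ± 1.08 of GFP-medium and 0.934% ± 0.337 of GFP-negative (SD, n = 4). From 50 to 150 bp upstream, where the GC boxes lie, 20 of 34 were counted, and they took 0.601% ± 0.0732 of bulk, 0.606% ± 0.597 of GFP-medium and 0.115% ± 0.0874 of GFP-negative. From 190 to 230 bp upstream, beyond the octamer, 5 of 6 were counted, with 0.258% ± 0.0742, 0.688% ± 0.305 and 1.05% ± 1.45.

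The GC-rich middle stretch held little of the GFP-negative counts. Of its 20 counted gRNAs, 12 had no GFP-negative count and none was present in 3 or more GFP-negative libraries, while all 8 of the stretch at the start had a GFP-negative count, 6 of them in 3 or more. In the whole library 37.9% of the gRNAs counted in all 4 bulk libraries had no GFP-negative count. That base is narrower than the 20 here, which needed a count in any bulk library, so these shares are not like for like. The stretches also differed in bulk. There 13 of the 20 and all 8 were counted in all 4 libraries, and the lowest bulk means were 6.39 and 291 CPM. The part of this starting level was not tested. The GC content of the sites, PAM left out, was 57.9% to 85% in the middle stretch, 36.8% to 60% at the start and 47.4% to 63.2% beyond the octamer. GC content thus moved with these levels, and its part in them was not tested. In the middle stretch chr8:43307094-43307116, with its site of 85% GC, stood at 369, 880.0, 529.7 and 844 CPM in bulk, 13306, 0, 0 and 0 CPM in GFP-medium and 0 in all GFP-negative libraries. That is at least 64.8-fold lower in GFP-negative than in bulk, computed with 3 counts per GFP-negative library (edgeR adjusted p = 0.0132), and the GFP-medium share of the whole stretch in replicate 1 (1.45%) came mostly from it.

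No counted gRNA cut within the octamer. Taking the cut 3 bases before the PAM, the widest gap between cuts of counted gRNAs in the upstream stretch ran from 153.5 to 193.5 bp, 40 bp that contain the motif. The nearest cut, by chr8:43307196-43307217, lay 7.5 bp beyond its far edge, and the nearest on the other side lay 25.5 bp from it. That gRNA stood at 323, 217, 944 and 76.7 CPM in bulk, 335, 0, 650.4 and 1380.3 CPM in GFP-medium and 0, 6.15, 16618 and 333 CPM in GFP-negative. Its GFP-negative mean rested on replicate 3. Of the overlapping pair that cuts beyond it, chr8:43307208-43307229 has its values above, with a GFP-negative library at 0, and chr8:43307209-43307231 was counted in all 12 libraries, with 333 to 631 CPM in bulk, 18.9, 1711, 1457 and 3353 CPM in GFP-medium and 141, 369, 833 and 1198 CPM in GFP-negative.

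Among the 8 members with the highest GFP-negative means, several owed them mainly to a single library. The gRNA chr8:43305774-43305795, 1224.5 bp inside the gene, stood at 523 to 1382 CPM in bulk and at 0, 29274, 0 and 0 CPM in GFP-negative. The gRNA chr8:43305284-43305306, 1714 bp inside, stood at 241 to 1253 CPM in bulk, 28.3, 0, 0 and 0 CPM in GFP-medium and 24392, 0, 0 and 0 CPM in GFP-negative. Upstream, chr8:43308398-43308420 at 1400 bp stood at 0, 590.5, 0 and 20799.7 CPM in GFP-negative, from 216 to 898 CPM in bulk.

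Among the rest, chr8:43305500-43305522, 1498 bp inside, stood at 12829, 0, 2295 and 3404 CPM in GFP-negative, from 1370.2 to 1816 CPM in bulk. Others were present in 3 of the 4 libraries at very unequal levels. The gRNA chr8:43306817-43306839, 181 bp inside, stood at 16179, 685, 7245 and 0 CPM in GFP-negative, and chr8:43305814-43305836, 1184 bp inside, at 15563, 36.9, 3148 and 0 CPM. The gRNA chr8:43308388-43308409, 1389.5 bp upstream, was counted in all 4, at 15943, 847, 79.0 and 4158 CPM, from 875 to 1617 CPM in bulk. None was called against bulk by edgeR. In GFP-negative against bulk the DESeq2 adjusted p was 0.00618 for chr8:43306817-43306839, 0.0291 for chr8:43305814-43305836 and 0.00612 for chr8:43308388-43308409. It was 0.0636 for chr8:43305500-43305522 and 0.0644 for chr8:43308398-43308420.

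Among the 8 highest GFP-medium means, those of the gRNAs at 260 bp inside and 764 bp upstream described above were high in all 4 libraries, and others were uneven. The gRNA chr8:43308447-43308469, 1449 bp upstream, stood at 4.72, 3.73, 634 and 37471 CPM in GFP-medium and 0, 0, 561 and 131 CPM in GFP-negative. The gRNA chr8:43305996-43306018, 1002 bp inside, stood at 2058, 22245, 140.0 and 478 CPM in GFP-medium, and chr8:43307593-43307615, 595 bp upstream, at 19735, 1283, 288 and 256 CPM. For the latter the GFP-negative libraries had 9983, 1923, 130.4 and 99.2 CPM, the same order by number. The gRNA chr8:43306668-43306690, 330 bp inside, was high in replicates 2 and 4 of GFP-medium, at 557, 8434, 305 and 9696 CPM, and had 0, 111, 0 and 6551 CPM in GFP-negative.

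In GFP-negative 37 of the 40 called lower lay below every bulk library, 27 had no count at all, and DESeq2 also called 32 of them. They lay 23 upstream and 17 inside the gene, with 12 within 500 bp. All 40 were also called with the replicate block. For GFP-medium 12 of the 13 called lower lay below bulk throughout and 9 had no count.

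The gRNA chr8:43308468-43308489, 1469.5 bp upstream, had the largest drop by edgeR in GFP-negative. It stood at 2109, 1772, 1289.7 and 998 CPM in bulk, 0, 384, 0 and 0 CPM in GFP-medium and 0 in every GFP-negative library, at least 152-fold lower (edgeR adjusted p = 0.00740). Its overlapping neighbour chr8:43308455-43308476, at 1456.5 bp, stood at 1155, 1013, 1198 and 1893 CPM in bulk, 0, 29.8, 0 and 0 CPM in GFP-medium and 0 throughout GFP-negative (at least 130-fold, edgeR adjusted p = 0.00488). The gRNA at 1449 bp named above overlaps both, though chr8:43308468-43308489 only at its end. It was the highest of all promoter gRNAs in replicate 4 of GFP-medium. In GFP-medium replicates 1, 2 and 3 it stood at 4.72, 3.73 and 634 CPM, so its wide gap to these neighbours rests mainly on replicate 4.

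Inside the gene chr8:43306611-43306632, at 387.5 bp, was at 955, 1856, 1198 and 1049 CPM in bulk and at 0 in all 8 sorted libraries. This is at least 125-fold lower in GFP-negative and at least 72.0-fold lower in GFP-medium (edgeR adjusted p = 0.00476 and 0.0129). Its overlapping neighbour chr8:43306603-43306624, at 395.5 bp, also had no GFP-negative count but stood at 0, 1294, 0 and 0 CPM in GFP-medium (at least 96.5-fold lower in GFP-negative, edgeR adjusted p = 0.0101). Also without a sorted count were chr8:43307247-43307268, 248.5 bp upstream, at 446 to 1658 CPM in bulk, chr8:43306339-43306361, 659 bp inside, at 185 to 783 CPM, and chr8:43307882-43307903, 883.5 bp upstream, at 77.0 to 988 CPM. The edgeR adjusted p for GFP-medium against bulk was 0.00868, 0.00377 and 0.00239 for these. The gRNA chr8:43305932-43305953, 1066.5 bp inside, was at 0 in GFP-negative from 668 to 1543 CPM in bulk (at least 99.0-fold, edgeR adjusted p = 0.00566).

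The largest edgeR changes between GFP-negative and GFP-medium, all lost under the replicate block, set a population with no or few counts against 1 or a few high libraries. The gRNA chr8:43305145-43305167, 1853 bp inside, was the most even of those called higher, at 0 in GFP-medium and 0, 312, 166 and 194 CPM in GFP-negative (at least 9.57-fold higher, edgeR adjusted p = 0.0253, 0.183 with the block). The others named by the rule were chr8:43305284-43305306, described above (edgeR adjusted p = 0.0426, 0.398 with the block), chr8:43305014-43305035, chr8:43306213-43306234 and chr8:43307378-43307400. The last 3 had GFP-negative values of 0, 197, 0 and 0 CPM, 2738, 2.05, 0 and 0 CPM, and 8023, 0, 0 and 15.9 CPM in that order. Among those called lower, chr8:43308797-43308818, 1798.5 bp upstream, stood at 0, 4589.9, 57.6 and 4060.2 CPM in GFP-medium and 0 throughout GFP-negative (at least 215-fold, edgeR adjusted p = 0.0253, 0.183 with the block). The remaining ones were chr8:43307094-43307116, chr8:43305560-43305582, chr8:43305678-43305700 and chr8:43308320-43308342, with block adjusted p-values by edgeR of 0.236, 0.188, 0.188 and 0.215.

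At the edges of the window, the outermost upstream member, chr8:43308978-43308999 at 1979.5 bp, stood at 529.7 to 1350.1 CPM in bulk, 0, 1659, 0 and 1306 CPM in GFP-medium and 0, 0, 0 and 1190.4 CPM in GFP-negative, and the first gRNA beyond it, at 2015 bp, had no count in any library. On the gene side the outermost member at 1992 bp and the first beyond the edge at 2020 bp both had no count either, so levels across the edges could not be compared.

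The Tdgf1 line, which also carried GFP in place of sequence at the start site, gave a larger shift for its own promoter. There 456 gRNAs met the same 2-kb rule. The log2 ratio of their share to that of the bulk library of the same number reached 2.22 ± 0.213 for GFP-medium and 1.46 ± 0.242 in GFP-negative (SD, n = 3), against 0.73 ± 0.0845 and 0.22 ± 0.268 for Zfp42 (n = 4). The lines did not overlap in either population, and exact permutation of the line labels gave p = 0.0571, the smallest that 3 against 4 allow. The lines differ in the first-base pattern described above and in the GFP-targeting share of GFP-negative libraries, which was 4.53% to 8.41% in Tdgf1. The part of either in the difference was not tested.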

How the data were processed

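Counts of gRNAs per library were used as deposited by the authors, in 1 table for the Zfp42 line and, for the line comparison, 1 for Tdgf1. Per the labels, libraries were made from genomic DNA by PCR. Coordinates are mm10, per the submitters' processing notes, and the program that made the counts was not stated in them. The values are whole and library totals differ, so they were taken as raw. Sample titles gave each population and replicate number. The members, lists and tests were chosen with earlier results of these data known.

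The 12 Zfp42 libraries were fitted together with edgeR 4.0.16 in R 4.3.3 on the whole table without the placeholder (filterByExpr with minimum count 10, TMM scaling, robust quasi-likelihood F test, 2-sided, Benjamini-Hochberg at 0.05). DESeq2 1.42.0, limma-voom (limma 3.58.1), other scaling, no filter, a replicate block, a 1-kb window and leaving out each replicate were alternatives. Another was a block of replicates 1 and 2 against 3 and 4, called the split block below. The sample labels name no batch. The fit was also run on simulated counts as a check of the code. Those counts lacked the many zeros and single high libraries of the sorted populations, so they do not bear on the calls here. Shares and ratios were compared over libraries by exact permutation tests with scipy 1.17.1 in python 3.11.15, bins after adding 1 count. Folds against a population without counts are lower bounds, from the mean CPM of the other population against 3 counts per library.

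Replicate numbers pair the samples: deviations from the population means correlated at 0.116 to 0.259 in all 12 same-numbered library pairs and at -0.138 to -0.00660 in 36 other pairs. The origin of this pairing is not given in the labels.

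Named gRNAs were, per comparison, up to 5 called in each direction with the largest change, the 8 with the highest mean in each sorted population, up to 5 that stood above all libraries of the other population, the 4 nearest to the 5′ end on each side, the window's edges, and neighbours within 25 bp. The gRNAs shown for the 3 stretches, chosen after their values were seen, fall outside this rule. RefSeq gave gene spans and 300 bases around the start; sites elsewhere were not read. The deep-sequenced sites of the series lie outside the window and were not used here.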

Additional observations from a re-analysis of the deposited data

Results flagged for a closer look

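In each group of 4 libraries, the highest or lowest value was compared with its nearest neighbour by Dixon's criterion at its 95% critical value. Of 171 groups of 4 values 33 had such a value. The criterion's rate of about 1 in 20 holds for normally distributed values. Many groups here hold libraries without a count, and many gRNAs were chosen for high or changed levels, so that rate does not apply. Of the 33, 11 were gRNAs counted in a single library of a sorted population, which always meets the criterion, 16 were gRNAs counted in 2 to 4 libraries of a sorted population, 2 were bulk values and 4 were shares or ratios.

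Among the shares and ratios, GFP-negative replicate 2 had the lowest promoter share (11.7%) and the lowest share of the upstream side (2.31%). The ratio of the upstream to the gene side was highest in bulk replicate 1 (0.935), and the ratio of the promoter to the region 2 to 5 kb upstream was lowest in GFP-medium replicate 1 (1.15).

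In GFP-negative replicate 1 chr8:43305284-43305306 stood apart at 24392 CPM, chr8:43307378-43307400 at 8023 CPM and chr8:43306213-43306234 at 2738 CPM, while chr8:43305996-43306018 was lowest there at 3.52 CPM. In replicate 2 chr8:43305774-43305795 stood at 29274 CPM and chr8:43305014-43305035 at 197 CPM. In replicate 4 chr8:43308398-43308420 stood at 20799.7 CPM, chr8:43306668-43306690 at 6551 CPM and chr8:43305560-43305582 at 3.97 CPM.

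In GFP-medium replicate 1 chr8:43306714-43306735 stood apart at 50959 CPM, chr8:43307593-43307615 at 19735 CPM, chr8:43307094-43307116 at 13306 CPM, chr8:43305500-43305522 at 9228 CPM, chr8:43305814-43305836 at 3611 CPM, chr8:43308320-43308342 at 2336 CPM and chr8:43305284-43305306 at 28.3 CPM. In replicate 2 chr8:43305996-43306018 stood at 22245 CPM, chr8:43307009-43307030 at 18583 CPM, chr8:43305774-43305795 at 5198 CPM, chr8:43308398-43308420 at 2129 CPM and chr8:43306603-43306624 at 1294 CPM. Lower values that were still the highest of their groups in replicate 2 were 384 CPM for chr8:43308468-43308489, 183 CPM for chr8:43305932-43305953, 29.8 CPM for chr8:43308455-43308476 and 3.73 CPM for chr8:43307378-43307400. In replicate 4 chr8:43308447-43308469 stood at 37471 CPM and chr8:43305560-43305582 at 4848 CPM.

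In bulk chr8:43305145-43305167 was highest in replicate 4 at 869.7 CPM, and chr8:43305284-43305306 was lowest in replicate 2 at 241 CPM.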

How the results depend on the processing

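The promoter share in GFP-medium against bulk kept its direction and its side of the threshold in all alternatives that allow a test, at 0.72 to 0.77 without each replicate in turn. The share without GFP-targeting counts raised GFP-negative against bulk to 0.59 (p = 0.0286, exact permutation) and left GFP-negative against GFP-medium at -0.14 (p = 0.257). Without each library's most counted promoter gRNA the promoter over the middle of the gene body turned to -0.12 in GFP-negative against bulk and fell to 0.57 in GFP-medium against bulk, and the bin from 1500 to 2000 bp inside the gene turned to -0.00368 in GFP-negative against bulk. The bin from 1000 to 1500 bp inside the gene turned to 0.32 between GFP-negative and GFP-medium within replicates 3 and 4.

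Counts of called gRNAs moved by over 1.5 times in 34 of 126 alternatives. For GFP-negative against bulk, DESeq2 called 16 higher, and those lower were 20 with limma-voom, 62 without a filter, 17 within 1 kb and 38 to 61 without each replicate. For GFP-medium against bulk, DESeq2 called 16 higher, and those lower were 5 with limma-voom, 34 without a filter, 22 with the replicate block, 7 within 1 kb and 15 to 33 without each replicate. Between GFP-negative and GFP-medium those higher were 3 with DESeq2, 0 with limma-voom, 0 with the replicate block, 3 with the split block, 0 with only these populations, 3 within 1 kb and 0 to 8 without each replicate. Those lower were 0 with the replicate block, 16 with the split block, 0 with only these populations, 9 within 1 kb and 0 to 34 without each replicate. Fewer gRNAs enter within 1 kb, and for the other changes the cause was not tested. The block changed no other count by over 1.5 times, except 60 against 40 called lower in GFP-negative against bulk, which is 1.5 times.

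Of 509 values for named gRNAs under alternatives, 450 kept direction and side, 50 lost the call, 6 gained one and 3 turned. These were the log2 changes between GFP-negative and GFP-medium of chr8:43305284-43305306, from -3.93 (without GFP-negative replicate 1) to 13.11, chr8:43305014-43305035, from 0 (without GFP-negative replicate 2) to 7.62, and chr8:43307094-43307116, from -13.26 to 0 (without GFP-medium replicate 1), as each replicate was left out. Bulk depth limits low members, since 3 counts are worth 36.2 to 76.7 CPM there.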
